A study of Homo sapiens with 12 samples.

Results

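The BRPF scaffold proteins and the acetyltransferase complexes built on them were followed at the level of their transcripts in A375 cells, a human melanoma line. The set has 9 genes, taken by name as the proteins that the inhibitor OF1 binds and their partners in the complexes. They are the scaffolds BRPF1, BRD1 (also called BRPF2) and BRPF3, the catalytic subunits KAT6A (MOZ), KAT6B (MORF) and KAT7 (HBO1), and the accessory subunits ING4, ING5 and MEAF6. All 9 were found among the 26475 entries of the table, and all 9 were among the 15353 entries that had enough counts to be tested. The genes were taken by name and role, with earlier results of these data known.

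Cells were treated for 24 h with OF1 at 1 µM together with XL413 at 1 µM, with OF1 alone at 1 µM, with XL413 alone at 1 µM, or with the vehicle DMSO, and each treatment had 3 libraries. OF1 blocks the bromodomains of the BRPF proteins, and XL413 inhibits CDC7, a kinase needed for the start of DNA replication. Every group is the same single cell line, grown in serum-containing medium, with no genetic change named in the labels. Libraries of a treatment are labelled as biological replicates, with nothing on whether they came from separate cultures, so p-values measure only the spread between libraries, which may be technical.

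In cells, a BRPF protein holds an acetyltransferase of the MYST family, an ING protein and MEAF6 together as a complex of 4 subunits. The scaffold helps decide which histone is acetylated: BRPF proteins direct the enzyme to histone H3, whereas JADE proteins, the other scaffolds of KAT7, direct it to histone H4. The ING subunit reads trimethylated lysine on histone H3, and the bromodomain of the BRPF protein, which OF1 occupies, binds acetylated lysine. KAT7 was named for its binding to the origin recognition complex and is known for a part in preparing replication origins. The assay measured mRNA, so it shows neither the amount of these proteins nor their activity.

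Total counts per library ran from 30499559 to 36062138, and the 9 genes had between 454 (ING4) and 2637 (KAT7) counts in a library. Values are given as CPM, read counts relative to the size of the library after scaling with TMM factors. Of melanocyte lineage genes, SOX10 averaged 348 CPM, MITF 38.7 CPM and S100B 22.8 CPM over the libraries, whereas PMEL (0.649 CPM) and MLANA (0.125 CPM) were low and TYR was at 0 in every library. The summed level of these 9 lineage markers was 399 to 432 CPM with OF1+XL413, 432 to 467 CPM with OF1, 420 to 456 CPM with XL413 and 412 to 444 CPM with DMSO. SOX10 made up most of that sum. MITF was lower with OF1+XL413 than with DMSO, at 34.5 ± 1.46 against 43.4 ± 0.851 CPM (SD, n = 3 each). Its log2 change was -0.33 (edgeR, adjusted p = 0.00173), and 5.07% of all tested genes were called lower there. Of the 6 lineage markers tested, the other 5 were not called in that comparison, and the median log2 change of the 6 was -0.01. Transcripts of 12 skeletal muscle markers, led by ACTC1, DES and MYH3, were present in every library and summed to 21.2 to 91.1 CPM with OF1+XL413, 117 to 264 CPM with OF1, 120 to 258 CPM with XL413 and 81.7 to 214 CPM with DMSO. The 9 fibroblast markers, led by COL1A1, COL1A2 and COL3A1, summed to 62.8 to 164, 260 to 290, 240 to 285 and 219 to 276 CPM in the same order of groups. Replicates 2 and 3 of OF1+XL413 were the libraries lowest in both lists. For the 9 genes and genes of related roles, called results that rest on that group are therefore also given with its replicate 1 alone. The MITF call rests on that group too, and no such value is given for it. The 5 keratinocyte markers, led by KRT10, KRT14 and SFN and with KRT1 at 0 in every library, summed to 67.9 to 85.1, 79.8 to 106, 105 to 112 and 82.4 to 103 CPM. Of the 4 that were tested, 2 were called lower with OF1 against DMSO, where 0.567% of all genes were. These were SFN (log2 change -0.46, edgeR adjusted p = 0.00770) and KRT14 (-0.30, 0.0495). In bulk RNA, fewer cells of a type cannot be told apart from less RNA per cell.

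Fitted changes of the 9 genes against DMSO were small, as were those of the typical tested gene. On the log2 scale their median size was 0.09 with XL413 (0.09 over all genes), 0.03 with OF1 (0.08) and 0.08 with OF1+XL413 (0.10). Against DMSO, none of the 9 genes passed an adjusted p of 0.05 in edgeR's quasi-likelihood test under any treatment, in 27 tests. Their fitted changes lay between -11.7% and 9.18%, and the 95% intervals of all 27 stayed between -20.4% and 20.4%. With XL413, 0 of 9 were called against a background of 2.8% of all tested genes. With OF1, 0 of 9 were called against 1.15%, and with OF1+XL413, 0 of 9 against 10.7%. At shares this low, 0 of 9 does not set these genes apart from other genes. DESeq2 and limma-voom each called 0 of the 27 as well. At an unadjusted p under 0.05 there were 7, made up of 3 with XL413 (background 18.6%), 1 with OF1 (14.4%) and 3 with OF1+XL413 (25.6%). The smallest adjusted p of the 27 was 0.0837, for BRPF1 with OF1+XL413.

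**Figure D1:**
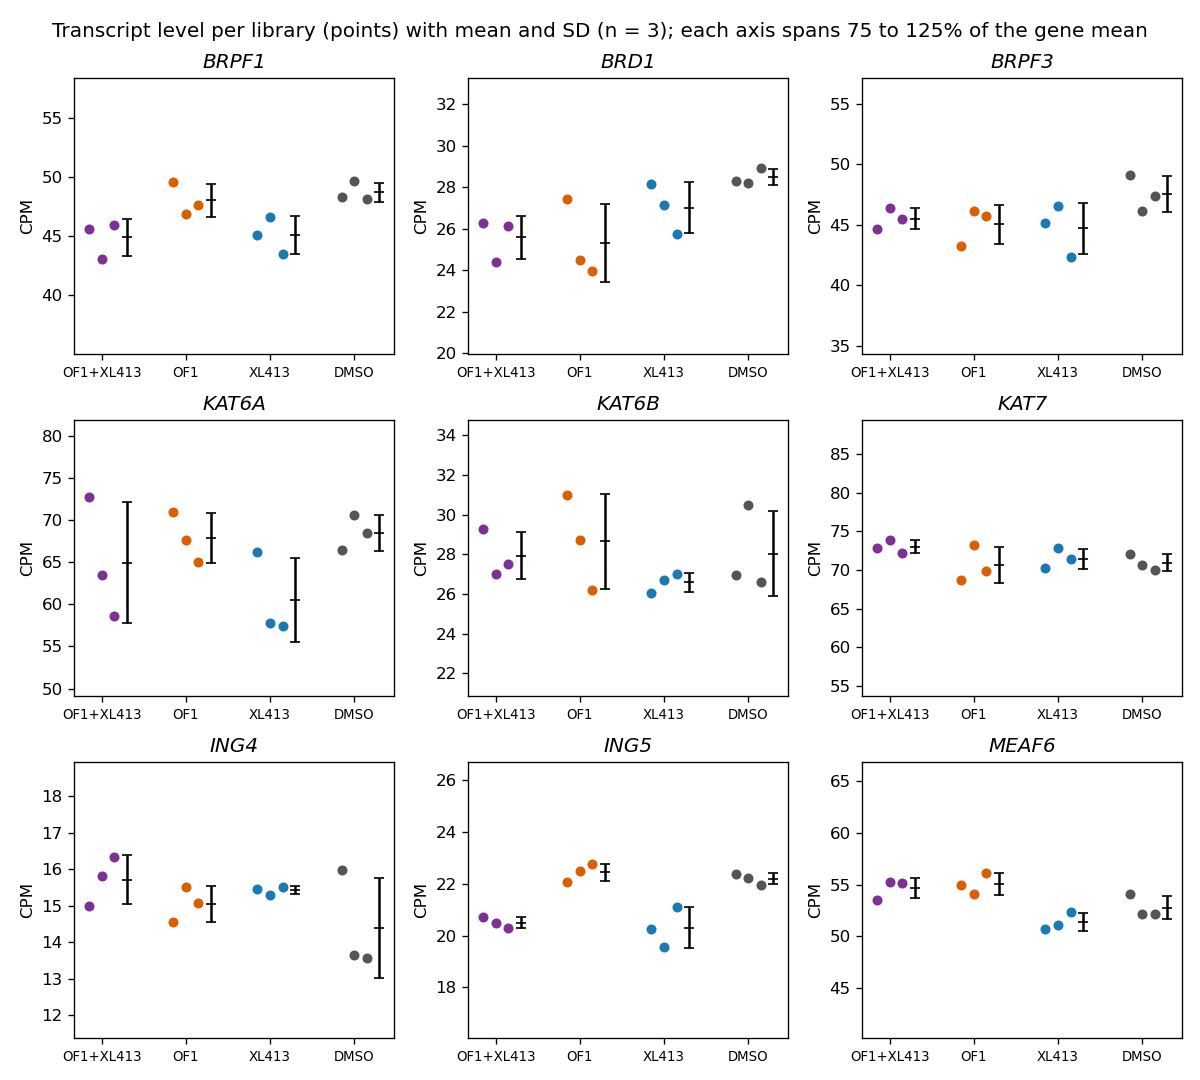
CPM of the 9 genes in each library, 1 panel per gene, with groups along the horizontal axis and the mean ± SD of 3 libraries beside the points. Each vertical axis spans the same percentage above and below the gene's mean, so that spreads can be compared. The BRPF1 and ING5 points of the libraries with XL413 lie below all points of the libraries without it, and KAT6A has the widest scatter.

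Averaged over both backgrounds (OF1+XL413 and XL413 against OF1 and DMSO, 6 libraries on each side), BRPF1 (-7.04%) and ING5 (-8.56%) fell with XL413. These were 2 of 9 members called, against 12% of all tested genes called in either direction and 5.63% called lower. They were also the 2 members whose libraries with XL413 all lay below those without it, which held for 1.72% of all genes. This rests on the same values as the calls and is no separate evidence. For BRPF1 the nearest libraries were at 46.66 and 46.92 CPM. DESeq2 and limma-voom called 2 members each in this comparison. No member was called for the average OF1 effect, where 4.94% of all genes were called.

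Among the scaffolds, BRPF1 (chr3:9731735-9748015, GRCh38.p14) is the main partner of KAT6A and KAT6B. It measured 45.7, 43.1 and 46.0 CPM with OF1+XL413, 49.6, 46.9 and 47.6 CPM with OF1, 45.1, 46.7 and 43.5 CPM with XL413, and 48.4, 49.7 and 48.1 CPM with DMSO. All 6 libraries with XL413 were below all 6 without it, while the OF1 libraries overlapped those of DMSO. BRPF1 averaged 45.0 ± 1.43 CPM with XL413 and 48.4 ± 1.08 CPM without it (SD, n = 6 each). The fitted log2 change was -0.11 ± 0.03 (SE), or -7.04% with a 95% interval of -11.0% to -2.92% (edgeR, adjusted p = 0.0312). With replicate 1 as the only OF1+XL413 library the log2 change was -0.09 (adjusted p = 0.133), and with the muscle transcript score as a covariate it was -0.09 (adjusted p = 0.193). The call was also lost without replicate 2 (adjusted p = 0.0795) or 3 (0.0524) of DMSO, replicate 3 of XL413 (0.0784), replicate 1 of OF1 (0.0714) or replicate 2 of OF1+XL413 (0.0806).

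The same gene in single comparisons gave -7.86% with OF1+XL413 against DMSO (interval -13.3% to -2.03%, edgeR adjusted p = 0.0837). XL413 alone gave -7.49% (-13.0% to -1.65%, adjusted p = 0.157). OF1 alone gave -1.36% (-7.21% to 4.86%, adjusted p = 0.868). These 3 comparisons share the DMSO libraries, so their values are not independent of each other. The OF1+XL413 libraries lay below the OF1 libraries as well, at -6.59% (adjusted p = 0.175).

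BRD1 (chr22:49773278-49827873) is the scaffold best known as a partner of KAT7. It measured 26.3, 24.4 and 26.1 CPM with OF1+XL413, 27.4, 24.5 and 24.0 CPM with OF1, 28.2, 27.1 and 25.7 CPM with XL413, and 28.3, 28.2 and 28.9 CPM with DMSO. The DMSO libraries were close together and above all other libraries, though replicate 1 of XL413 (28.18 CPM) came close to the lowest of them (28.19 CPM). BRD1 averaged 25.5 ± 1.36 CPM with OF1, with or without XL413, and 27.8 ± 1.14 CPM without OF1 (SD, n = 6 each), and the 2 sets overlapped. The average OF1 effect was a log2 change of -0.12 ± 0.04 (SE), or -8.25% with an interval of -13.5% to -2.69%, and missed the threshold (edgeR, adjusted p = 0.0906). Without replicate 1 of OF1, its highest library, the log2 change was -0.16 and the adjusted p 0.0293. It was -0.10 with replicate 1 as the only OF1+XL413 library (adjusted p = 0.215). Against DMSO alone, BRD1 stood at -10.2% with OF1+XL413 (adjusted p = 0.0928), -11.1% with OF1 (adjusted p = 0.167) and -5.16% with XL413 (adjusted p = 0.500).

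BRPF3 (chr6:36196744-36232790), also a partner of KAT7, measured 44.6, 46.4 and 45.5 CPM with OF1+XL413, 43.2, 46.2 and 45.7 CPM with OF1, 45.2, 46.6 and 42.4 CPM with XL413, and 49.1, 46.1 and 47.4 CPM with DMSO. Each treated group overlapped DMSO, and the changes against DMSO were -4.25%, -5.26% and -6.03% in that order of treatments. Per kilobase of transcript, the 3 scaffolds kept close to fixed proportions. BRPF1 made up 42.9% ± 0.726 of their summed CPM per kilobase with OF1+XL413, 44.8% ± 0.591 with OF1, 42.7% ± 0.499 with XL413 and 43.1% ± 0.879 with DMSO (SD, n = 3 each). BRD1 made up 22.3% ± 1.26 with OF1 and 23.9% ± 0.383 with DMSO, the lowest and the second highest of its group means.

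Of the catalytic subunits, KAT6A (chr8:41929479-42051987), the MOZ acetyltransferase, had the widest spread of the 9 genes. It measured 72.7, 63.5 and 58.6 CPM with OF1+XL413, 71.0, 67.7 and 65.1 CPM with OF1, 66.2, 57.8 and 57.4 CPM with XL413, and 66.4, 70.6 and 68.4 CPM with DMSO. Replicates 2 and 3 of XL413 and replicate 3 of OF1+XL413 were the lowest, and replicate 1 of OF1+XL413 was the highest of all 12. Its coefficient of variation over the libraries was 7.97%, against 2.14% from counting alone. KAT6A averaged 60.5 ± 4.98 CPM with XL413 and 68.5 ± 2.11 CPM with DMSO (SD, n = 3 each), a change of -11.7% with an interval of -20.4% to -1.96% (edgeR, adjusted p = 0.185). When those 6 libraries were fitted by themselves, the edgeR adjusted p was 0.0384 for a log2 change of -0.18. That fit called 1394 of 14995 genes, against 430 of 15353 in the fit of all libraries. For the average XL413 effect, 1845 of 15353 genes were called with all libraries and 2903 of 15523 without replicate 1 of OF1+XL413. On KAT6A that effect was -8.09% (edgeR adjusted p = 0.127). It was a log2 change of -0.12 with all libraries, -0.17 without replicate 1 of OF1+XL413 (adjusted p = 0.0129) and -0.04 with that replicate as the only OF1+XL413 library (adjusted p = 0.672).

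KAT6B (chr10:74824936-75032624), the MORF acetyltransferase and closest relative of KAT6A, averaged 27.9 ± 1.17 CPM with OF1+XL413, 28.6 ± 2.40 CPM with OF1, 26.6 ± 0.473 CPM with XL413 and 28.0 ± 2.13 CPM with DMSO (SD, n = 3 each). Its changes against DMSO were -0.402%, 2.20% and -5.17% in that order, with intervals of -9.47% to 9.57%, -7.10% to 12.4% and -13.8% to 4.35%. KAT7 (chr17:49788681-49835026), the HBO1 acetyltransferase, had the lowest coefficient of variation of the 9 genes. It measured 72.9, 73.9 and 72.2 CPM with OF1+XL413, 68.7, 73.2 and 69.9 CPM with OF1, 70.2, 72.8 and 71.4 CPM with XL413, and 72.1, 70.7 and 70.0 CPM with DMSO. This was 2.24% over the 12 libraries, beside the 2.05% that counting alone would give. The interval of its change against DMSO ran from -2.26% to 8.44% with OF1+XL413, from -5.50% to 4.87% with OF1 and from -4.36% to 6.11% with XL413. Exons of KAT7 lie within the span of FAM117A on the opposite strand, which averaged 2.31 CPM. The libraries kept strand, but whether the counting used it is not given in the sources used here, and annotated antisense genes also lie over exons of BRPF3, KAT6B and ING5.

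Of the accessory subunits, ING5 was called in the average XL413 comparison, and ING4 and MEAF6 were not called in any. ING5 (chr2:241687020-241729478), a reader of methylated histone H3, measured 20.7, 20.5 and 20.3 CPM with OF1+XL413, 22.1, 22.5 and 22.8 CPM with OF1, 20.3, 19.5 and 21.1 CPM with XL413, and 22.4, 22.2 and 22.0 CPM with DMSO. The 6 libraries with XL413 reached at most 21.1 CPM and the 6 without it were at least 22.0 CPM, so the sets did not overlap. ING5 averaged 20.4 ± 0.524 CPM with XL413 and 22.3 ± 0.287 CPM without it (SD, n = 6 each). The log2 change was -0.13 ± 0.03 (SE), or -8.56% with an interval of -12.7% to -4.20% (edgeR, adjusted p = 0.0169). It was -0.12 with replicate 1 as the only OF1+XL413 library (adjusted p = 0.102) and -0.14 with the muscle score as a covariate (adjusted p = 0.0911), and without replicate 2 of XL413 the adjusted p was 0.0505. In single comparisons ING5 stood at -7.66% with OF1+XL413 against DMSO (adjusted p = 0.114), -8.65% with OF1+XL413 against OF1 (adjusted p = 0.098), 1.09% with OF1 against DMSO (adjusted p = 0.904) and -8.47% with XL413 against DMSO (adjusted p = 0.136).

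ING4 (chr12:6650301-6663119), the ING5 paralog that can take the same place in the complex, measured 15, 15.8 and 16.3 CPM with OF1+XL413, 14.6, 15.5 and 15.1 CPM with OF1, 15.5, 15.3 and 15.5 CPM with XL413, and 16.0, 13.6 and 13.6 CPM with DMSO. The DMSO libraries spanned most of the range of the other groups, so all groups overlapped DMSO, and the average XL413 effect was 5.82% (interval -1.26% to 13.4%, edgeR adjusted p = 0.277). ING5 made up 30% ± 1.12 of the summed ING4 and ING5 level per kilobase with OF1+XL413, 32.9% ± 0.561 with OF1, 30.2% ± 0.672 with XL413 and 33.7% ± 1.89 with DMSO (SD, n = 3 each). That share was 29% to 31.2% in the 6 libraries with XL413 and 31.6% to 34.9% in the 6 without it, which is a description, since ING5 itself had passed. MEAF6 (chr1:37489993-37514766), the small subunit common to these complexes, measured 53.5, 55.3 and 55.2 CPM with OF1+XL413, 55.0, 54.1 and 56.2 CPM with OF1, 50.7, 51.1 and 52.4 CPM with XL413, and 54.1, 52.1 and 52.1 CPM with DMSO. The OF1+XL413 libraries lay above all XL413 libraries, and the average OF1 effect was 5.37% with an interval of 1.53% to 9.35% (edgeR, adjusted p = 0.103).

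Sequences upstream of the gene starts are shown for BRPF1 and ING5, the members called in the average XL413 comparison, and for BRD1, the scaffold furthest below DMSO with OF1. Each is the 250 bases before the annotated start, from RefSeq on GRCh38.p14, 5′ to 3′ on the strand of the gene, with capitals marking matches to the motifs named after them. The positions are chr3:9731485-9731734 (plus strand) for BRPF1, chr2:241686770-241687019 (plus strand) for ING5 and chr22:49827874-49828123 (minus strand) for BRD1.
BRPF1: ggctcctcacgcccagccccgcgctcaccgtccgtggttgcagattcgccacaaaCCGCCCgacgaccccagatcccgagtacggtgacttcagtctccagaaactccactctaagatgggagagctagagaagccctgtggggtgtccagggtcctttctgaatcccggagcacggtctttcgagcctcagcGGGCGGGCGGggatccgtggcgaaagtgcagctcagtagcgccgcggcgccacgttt
ING5: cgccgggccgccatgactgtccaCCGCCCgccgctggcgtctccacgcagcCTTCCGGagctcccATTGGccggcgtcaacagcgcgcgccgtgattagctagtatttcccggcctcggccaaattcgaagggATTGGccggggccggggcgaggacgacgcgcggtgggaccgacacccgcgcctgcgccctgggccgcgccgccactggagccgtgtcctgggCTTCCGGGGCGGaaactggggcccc
BRD1: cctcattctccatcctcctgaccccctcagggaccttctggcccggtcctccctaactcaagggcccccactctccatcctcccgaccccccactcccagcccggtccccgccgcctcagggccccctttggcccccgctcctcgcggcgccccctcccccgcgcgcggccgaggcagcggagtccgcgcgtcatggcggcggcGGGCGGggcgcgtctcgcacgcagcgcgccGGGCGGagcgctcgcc

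These windows are rich in G and C, at 64.0% with 24 CpG for BRPF1, 73.6% with 35 CpG for ING5 and 77.6% with 32 CpG for BRD1. The motifs searched on both strands were the GC box GGGCGG, the CCAAT box CCAAT, the ETS core CCGGAAG, the E2F sites TTTCCCGC and TTTGGCGC, the CHR element TTTGAA, the E-box CACGTG, the cAMP response element TGACGTCA and the NRF1 motif. BRPF1 held 3 GC boxes, of which 2 overlap, and BRD1 held 2. ING5 held 2 GC boxes, 2 CCAAT boxes and 2 ETS cores, of which 1 shares a base with a GC box. Of the 24885 promoter windows of this length, 41.7% held a GC box, 33.4% a CCAAT box and 8.81% an ETS core. None of the 3 windows held an exact match to the other motifs, which occur in 1.39% (TTTCCCGC), 0.547% (TTTGGCGC), 13.8% (CHR), 6.44% (E-box), 1.79% (cAMP response element) and 1.14% (NRF1) of all windows. A window was matched for 7 of the 9 genes. Outside the 3 shown, BRPF3 held 3 GC boxes, ING4 held 8 with 1 ETS core, MEAF6 held 1 with 1 ETS core, and KAT7 held 1 ETS core and 1 CHR element.

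**Figure D2:**
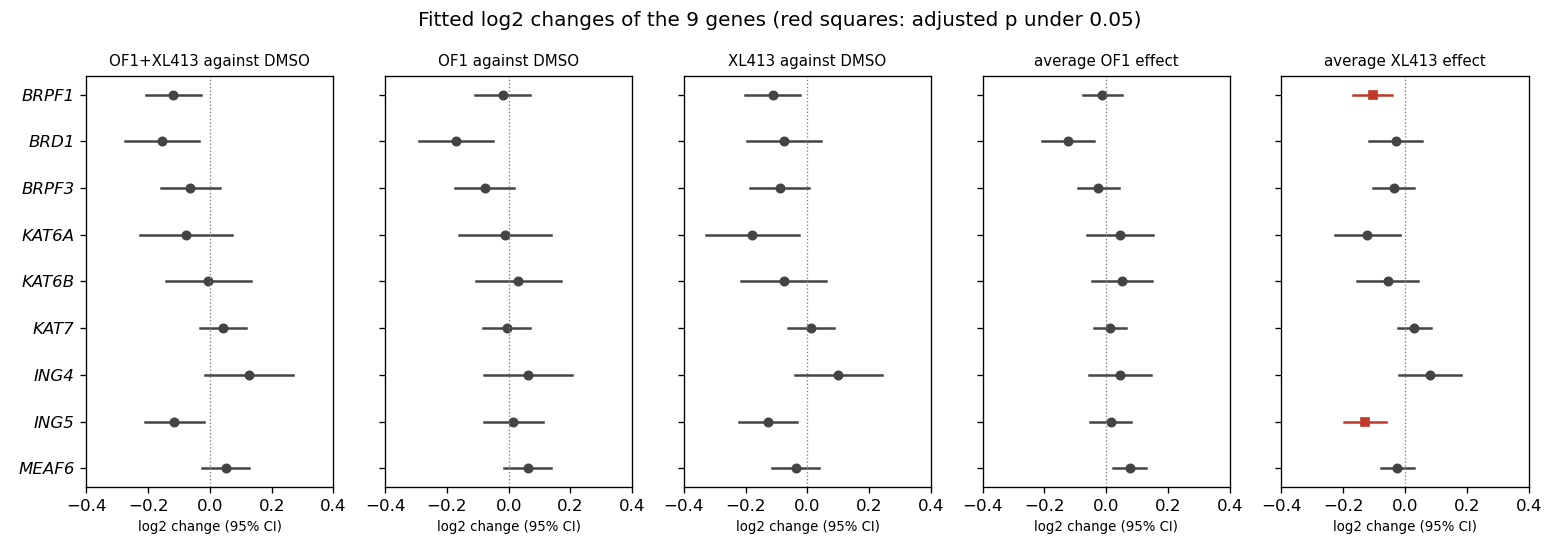
Fitted log2 change of each gene (horizontal axis, with 95% intervals) in 5 comparisons, 1 panel per comparison. Red squares mark the 2 members with an adjusted p under 0.05, BRPF1 at -0.11 and ING5 at -0.13 in the average XL413 comparison, and all other intervals belong to members that were not called.

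Counted over the members, 4 genes (BRPF1, BRD1, KAT6A and ING5) had XL413 libraries all below those of DMSO, against 14.8% of all genes. The nearest libraries were at 28.18 and 28.19 CPM for BRD1, and at 66.23 and 66.40 CPM for KAT6A. With OF1, BRD1 lay below DMSO without overlap (background 11.8%) and MEAF6 above it (10.2%). For MEAF6 the lowest OF1 library (54.12 CPM) barely exceeded the highest DMSO library (54.11 CPM). With OF1+XL413, BRPF1, BRD1 and ING5 lay below DMSO (13.8%) and KAT7 above it (13.8%), with its nearest libraries at 72.24 and 72.13 CPM. OF1+XL413 lay above XL413 for KAT6B and MEAF6 (8.99%) and below OF1 for BRPF1 and ING5 (11.3%). For KAT6B the nearest libraries were at 27.02 and 26.99 CPM. Of the 9 genes, 7 had a log2 change below 0 with XL413 against DMSO, where 50% of all genes did, and 7 had one for the average XL413 effect, where 51.0% did. The median log2 change of the members with XL413 against DMSO was -0.08, against 0.00 over all tested genes. For the average XL413 effect the members' median was -0.04. Against DMSO the members' median was -0.06 with OF1+XL413 and -0.01 with OF1, beside 0.00 over all genes in both. The median size of the members' changes, without regard to sign, was 0.08 with OF1+XL413 (0.10 over all genes), 0.03 with OF1 (0.08) and 0.09 with XL413 (0.09).

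**Figure D3:**
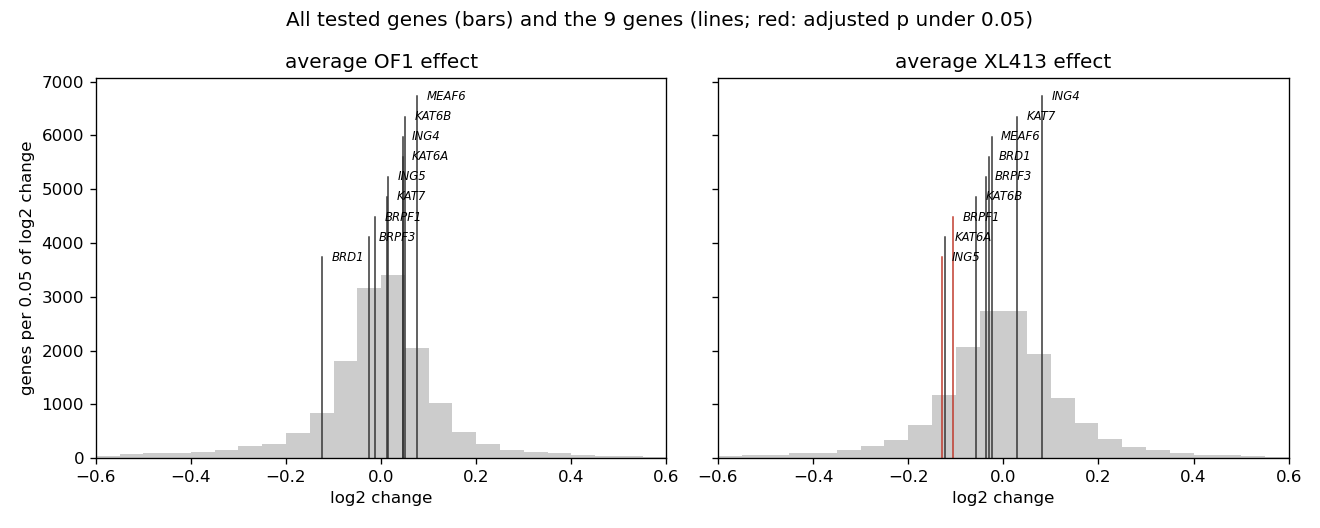
Histograms of the fitted log2 change of all 15353 tested genes for the average OF1 effect and the average XL413 effect, with lines at the 9 genes. The lines stand within the central mass of both histograms, with BRD1 (-0.12) furthest to the left for OF1 and ING5 (-0.13) for XL413.

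The combination was also set against each single inhibitor. OF1+XL413 against XL413 called 0 of 9 members (background 3.41%), and OF1+XL413 against OF1 called 0 of 9 (5.5%), in edgeR. At an unadjusted p under 0.05 there was 1 member against XL413, where 16.8% of all genes were, and there were 2 against OF1, where 22.5% were, and DESeq2 and limma-voom called 0 in each. Non-additivity, the log2 change of the combination minus those of OF1 and XL413 added up, was called for 0 of 9 members by edgeR and for 0.0% of all genes. No member, and 1566 of all genes, had an unadjusted p under 0.05 for it, while DESeq2 called 108 genes and 0 members. Its largest size among the members was 0.11 ± 0.10 (SE) on the log2 scale for KAT6A, with an interval of -0.10 to 0.33. For BRPF1 it was 0.01 ± 0.06, and the interval of -0.11 to 0.14 spans the size of the XL413 change itself.

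Per kilobase of the longest coding transcript, MEAF6 was the most abundant of the 9 transcripts, at 24.9 ± 0.826 CPM per kilobase (SD, n = 12 libraries). BRPF1 followed at 9.86 ± 0.452, ING4 at 8.86 ± 0.501, BRPF3 at 7.55 ± 0.295, KAT7 at 7.41 ± 0.166 and KAT6A at 7.07 ± 0.564 CPM per kilobase. BRD1 had 5.32 ± 0.340, ING5 4.11 ± 0.208 and KAT6B 3.33 ± 0.200 CPM per kilobase. Ranges over the libraries overlapped between each pair of neighbours from BRPF1 to KAT6A, so that order is not fixed beyond the spread. They did not overlap between MEAF6 and BRPF1, KAT6A and BRD1, BRD1 and ING5, or ING5 and KAT6B. With the union of all annotated exons as the length, the order was MEAF6, BRPF1, BRPF3, KAT7, ING4, BRD1, KAT6A, ING5 and KAT6B. On the coding transcript scale, KAT7 made up 42.3% ± 2.04 of the 3 catalytic subunits with OF1+XL413, 40.5% ± 1.74 with OF1, 43.3% ± 1.58 with XL413 and 40.6% ± 1.22 with DMSO (SD, n = 3 each).

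**Figure D4:**
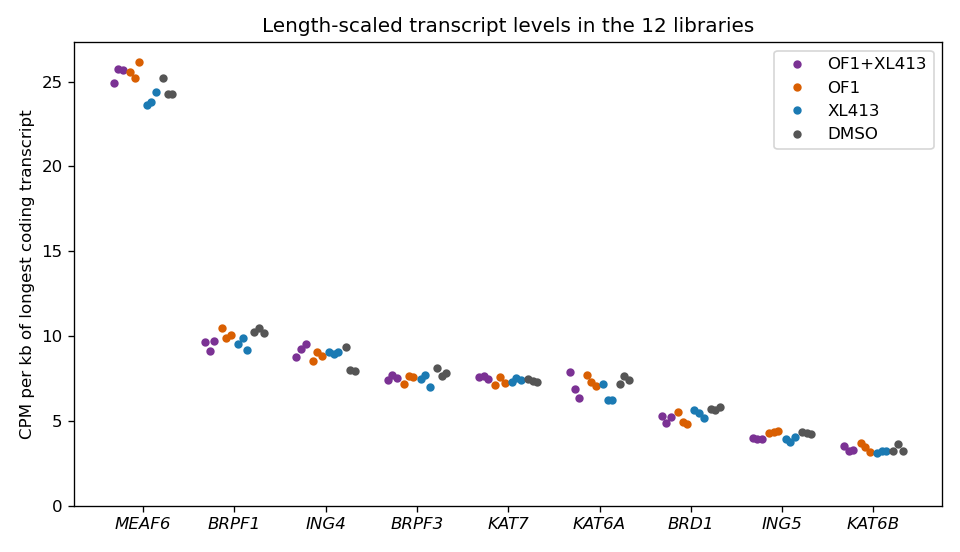
CPM per kilobase of the longest coding transcript for the 9 genes, ordered by their mean, with a point for each library. MEAF6 stands apart with a mean of 24.9 CPM per kilobase, and the means of the other 8 genes lie between 3.33 and 9.86.

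The genes whose profile over the 12 libraries was most like that of BRPF1 were PVR, CRLF3 and DUSP4, by the root mean square difference of centred log2 CPM among 12336 genes. The difference was 0.0266, 0.0355 and 0.0358, against a median of 0.108 over those genes. A gene that did not vary at all would differ from BRPF1 by 0.0637, so the median is a weak yardstick. For ING5 the most alike genes were SET, ACVR1B and HMGB3, at 0.0286, 0.0288 and 0.0307 against a median of 0.111 and 0.0701 for an unvarying gene. These are likenesses in 12 libraries of a single cell line.

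Genes with related roles were counted beside the members. Of 6 alternative scaffolds and other ING proteins, JADE1, a KAT7 scaffold that takes the place of a BRPF protein, fell in the average XL413 comparison to 40.8 ± 0.980 CPM with XL413, against 44.0 ± 1.14 CPM without it (SD, n = 6 each). Its log2 change was -0.11 ± 0.03 (SE, edgeR adjusted p = 0.0206), and the other 5 were not called there. Its change was -0.09 with replicate 1 as the only OF1+XL413 library (adjusted p = 0.134). Of all tested genes, 5.63% were called lower in the average XL413 comparison and 12% either way. In the other comparisons edgeR called 0 of 6, where 0.0% to 10.7% of all genes were called. The median of these 6 was -0.07 in the average XL413 comparison, beside 0.00 over all genes and -0.04 for the members. With XL413 against DMSO it was -0.12, beside -0.08 for the members.

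Of 11 lysine acetyltransferases outside the set, 2 fell and 1 rose in the average XL413 comparison, where 5.63% of all genes were called lower and 6.39% higher. CREBBP, the transcriptional coactivator CBP, averaged 62.5 ± 2.84 CPM with XL413 and 72.5 ± 4.31 CPM without it, and EP300, its paralog p300, averaged 55.0 ± 3.17 CPM with XL413 and 62.1 ± 2.89 CPM without it (SD, n = 6 each). Their log2 changes were -0.21 ± 0.04 (edgeR adjusted p = 0.00558) and -0.17 ± 0.04 (adjusted p = 0.00920). HAT1, which acetylates newly made histones, changed by 0.10 ± 0.03 on the log2 scale (adjusted p = 0.0257). In XL413 against DMSO the same count was 2 down, EP300 and CREBBP (both -0.24), and 1 up, KAT2B (PCAF), at 0.26 ± 0.07 (edgeR adjusted p = 0.0452). Of all tested genes, 1.54% were called lower and 1.26% higher in that comparison. CREBBP was called there in 8 of 15 alternatives, EP300 in 10 and KAT2B in 7. With OF1+XL413 against DMSO, where 5.07% of all genes were called lower, CREBBP (-0.23) and EP300 (-0.20) were called, each in 9 of 16 alternatives. With replicate 1 as the only OF1+XL413 library these were -0.15 for CREBBP and -0.15 for EP300. With the muscle score as a covariate they were -0.23 (edgeR adjusted p = 0.195) and -0.18 (0.275). For the average OF1 effect 2.74% of all genes were called lower. Only KAT2A (GCN5), of these 11, passed for that effect, at -0.12 ± 0.03 (edgeR adjusted p = 0.0419). It was called in 10 of 21 alternatives, and was -0.16 with replicate 1 as the only OF1+XL413 library (adjusted p = 0.00391). In the remaining comparisons edgeR called 0 of 11. The list's median was -0.08 for the average XL413 effect, beside 0.00 over all genes and -0.04 for the members. With XL413 against DMSO it was -0.11, beside -0.08 for the members.

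Of 16 subunits of the NuA4/TIP60 complex, which shares MEAF6 with the BRPF complexes, 2 rose in the average XL413 comparison, against 6.39% of all genes called higher and 12% called either way. BRD8, its bromodomain subunit, averaged 98.6 ± 3.32 CPM with XL413 and 87.1 ± 2.31 CPM without it (SD, n = 6 each), a log2 change of 0.18 ± 0.03 (edgeR adjusted p = 0.000973). YEATS4, a reader of acetylated histones, rose by 0.14 ± 0.03 on the log2 scale (adjusted p = 0.00882). Both were also called higher with OF1+XL413 against DMSO (BRD8 0.19, YEATS4 0.14) and against OF1 (0.22 and 0.16). Of all genes, 5.65% and 2.79% were called higher in those comparisons. With replicate 1 as the only OF1+XL413 library, BRD8 was 0.15 against DMSO (adjusted p = 0.0763) and 0.18 against OF1 (0.137), and YEATS4 was 0.06 (0.567) and 0.08 (0.619). The muscle covariate also ended these 4 calls. With it BRD8 was 0.21 against DMSO (edgeR adjusted p = 0.0649) and 0.25 against OF1 (0.432), so its fitted changes were not smaller. YEATS4 was 0.09 (0.517) and 0.08 (0.892) with it. In the other comparisons edgeR called 0 of 16. The median of the 16 was 0.02 for the average XL413 effect.

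Of 15 histone deacetylases, HDAC1 (0.11 ± 0.02, edgeR adjusted p = 0.00679) and HDAC10 (0.13 ± 0.04, adjusted p = 0.0417) rose and HDAC2 (-0.10 ± 0.02, adjusted p = 0.0153) fell in the average XL413 comparison, against 6.39% of all genes called higher and 5.63% lower. HDAC7 fell in the average OF1 comparison, at -0.12 ± 0.03 (edgeR adjusted p = 0.0290), and with OF1+XL413 against DMSO, at -0.19 ± 0.04. Of all genes, 2.74% and 5.07% were called lower in those comparisons. With replicate 1 as the only OF1+XL413 library HDAC7 was -0.15 and -0.24. With the muscle covariate it was -0.12 (edgeR adjusted p = 0.117) and -0.19 (0.140). HDAC1 was called higher with OF1+XL413 against OF1 (as 2.79% of all genes were), at 0.15 ± 0.03, in 9 of 16 alternatives. It was 0.08 (adjusted p = 0.392) with replicate 1 as the only OF1+XL413 library and 0.09 (0.852) with the muscle covariate. In the remaining comparisons edgeR called 0 of 15, and the list's median was 0.03 for the average XL413 effect and -0.03 for the average OF1 effect. With the muscle score as a covariate, of the genes named from these lists for the average XL413 effect CREBBP (adjusted p = 0.0426) and BRD8 (0.0105) were still called. With replicate 1 as the only OF1+XL413 library CREBBP (0.0450), EP300 (0.0365), BRD8 (0.00618) and HDAC1 (0.0474) were, whereas YEATS4 (0.0955), HDAC2 (0.0937), HAT1 (0.122), JADE1 (0.134) and HDAC10 (0.247) were not. Over all alternatives for the average XL413 effect, libraries left out included, CREBBP and BRD8 were called in 21 of 21, EP300 and HDAC1 in 20, YEATS4 and HDAC2 in 19, JADE1 in 18, HAT1 in 13 and HDAC10 in 5. HDAC7 was called in 15 of 21 for the average OF1 effect and in 14 of 16 for OF1+XL413 against DMSO. BRD8 was called in 14 of 16 for OF1+XL413 against DMSO and in 13 of 16 against OF1. YEATS4 was called in 5 of 16 for OF1+XL413 against DMSO and in 6 of 16 for OF1+XL413 against OF1.

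**Figure D5:**
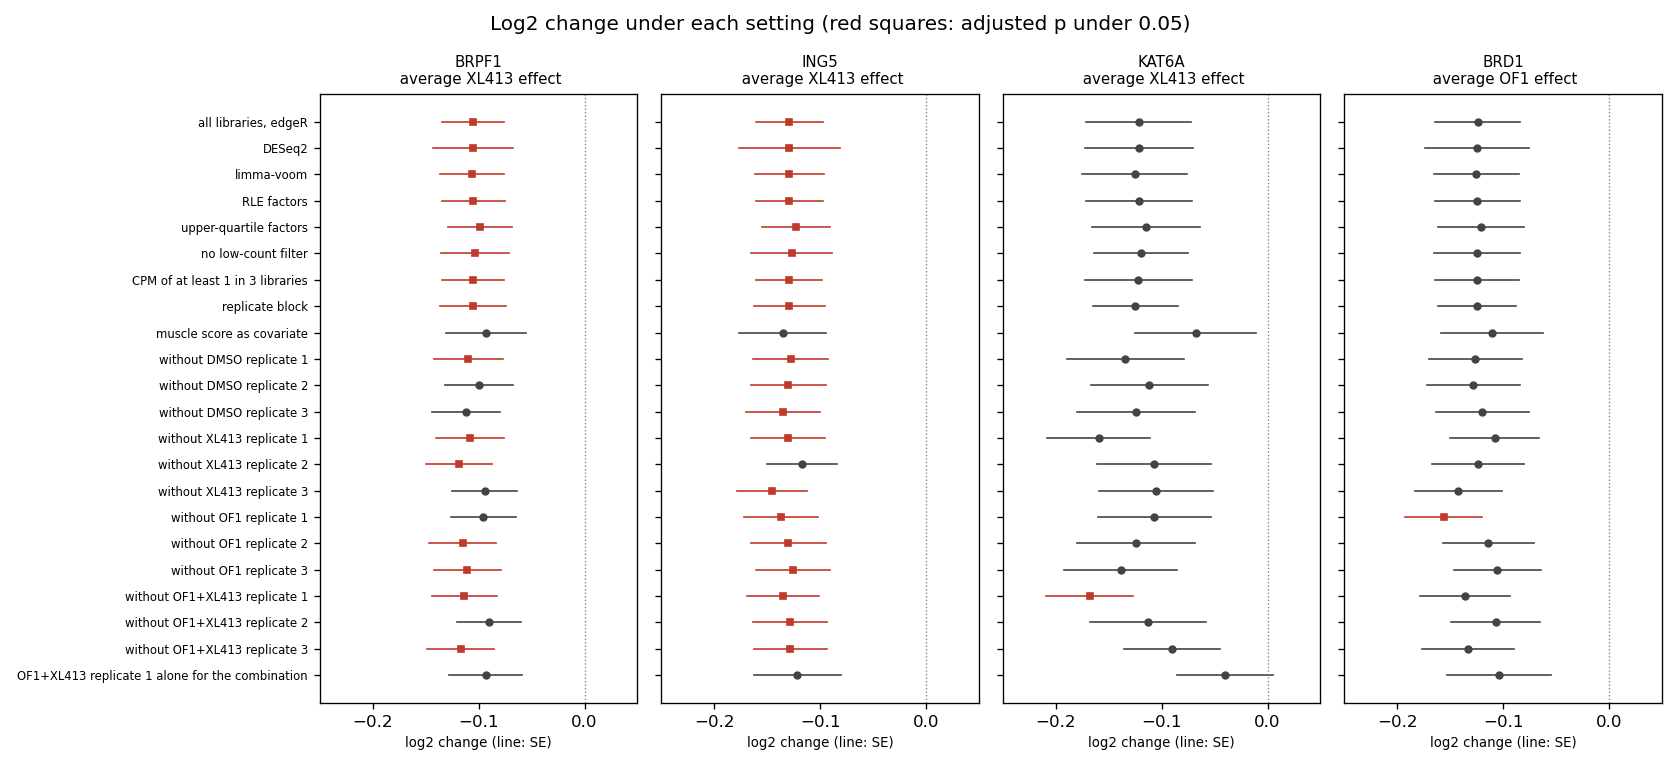
Fitted log2 change ± SE of BRPF1, ING5 and KAT6A (average XL413 effect) and of BRD1 (average OF1 effect) under each processing alternative and with each library left out. The fitted values of all 4 genes are below 0 under every setting drawn, BRPF1 between -0.12 and -0.09 and ING5 between -0.15 and -0.12.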

How the data were processed

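RNA was measured in 12 libraries, 3 for each treatment. Per the labels' protocols, mRNA was taken with oligo-dT beads and strand was kept through dUTP. The deposited values are expected counts by gene symbol, estimated by the authors and not scaled between libraries, of which 10.6% were not whole. The submitters' processing notes name Bowtie2 2.1.0, RSEM 1.2.15 and hg38. The annotation behind the counts and the strand setting of RSEM were, in the sources used here, not given. All 108 values of the 9 genes were whole.

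Expected counts were rounded and tested in R 4.3.3 with edgeR 4.0.16. Genes passing filterByExpr (15353) were scaled by TMM and fitted with 1 mean per group over 12 libraries, with 8 residual degrees of freedom, and p-values were adjusted over all tested genes (Benjamini-Hochberg, threshold 0.05). Standard errors were taken as the size of the log2 change over the root of the F statistic. The common biological coefficient of variation was 0.0487. DESeq2 1.42.0 and limma 3.58.1 (voom) were alternatives, with other scalings, filters, covariates and libraries left out. The fit was tested on simulated data. No replicate was a copy of another: the chi-square over its degrees of freedom was 2.32 to 13.6 for replicate pairs.

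The members, the lists (6 alternative scaffolds and other ING proteins, 11 acetyltransferases, 16 NuA4/TIP60 subunits, 15 deacetylases) and the cell type markers were chosen with earlier results of these data known. A list of blood cell markers is not reported here. All members are named, with up to 4 called genes per list and comparison, the 3 most abundant markers per cell type and the 3 most alike genes per called member, taken from genes averaging at least 1 log2 CPM. Transcript lengths for CPM per kilobase came from GENCODE on GRCh38, the build that hg38 denotes. The union of exons was an alternative chosen after seeing the data.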

Additional observations from a re-analysis of the deposited data

How the results depend on the processing

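Over the alternatives, 2 members were called for the average XL413 effect with DESeq2, limma-voom, other scaling factors, other low-count filters and the replicate block. With the muscle transcript score as a covariate, or with replicate 1 as the only OF1+XL413 library, 0 were called. Leaving out 1 library in turn gave 1 to 3 members called, the 3 including KAT6A without replicate 1 of OF1+XL413. That refit called 2903 of 15523 genes, against 1845 of 15353 with all libraries. BRPF1 was called in 14 of 21 alternatives. ING5 was called in 18 of 21. For XL413 against DMSO, 1 member (KAT6A) was called when those libraries were fitted alone, where 1394 of 14995 genes were called. For the average OF1 effect, leaving out 1 library gave 0 to 1 members called. The 1 was BRD1 without replicate 1 of OF1, where 598 of 15510 genes were called. No member's log2 change for the average XL413 effect turned sign over the 21 alternatives. For the average OF1 effect, 5 of 189 values (9 members under 21 alternatives) did. The median log2 change of all genes stayed within 0.0141 of 0 in every comparison under every setting run.

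Counts over all genes moved more. The muscle covariate took the called genes to 253 of 1645 for OF1+XL413 against DMSO, 65 of 176 for OF1, 191 of 430 for XL413, 34 of 524 for OF1+XL413 against XL413, 9 of 845 against OF1, 294 of 759 for the average OF1 effect and 448 of 1845 for the average XL413 effect. With replicate 1 as the only OF1+XL413 library, fewer genes were called against DMSO, XL413 and OF1 and for the average XL413 effect. More were called for the average OF1 effect and for non-additivity. The libraries compared alone gave 878 for OF1+XL413 against DMSO, 1394 for XL413 and 120 for OF1+XL413 against OF1. DESeq2 gave 350 for OF1 and 108 for non-additivity, for which no low-count filter gave 132. Leaving out 1 library gave 728 to 2113 for OF1+XL413 against DMSO, 42 to 79 for OF1, 86 to 287 for XL413, 168 to 828 for OF1+XL413 against XL413, 212 to 2227 against OF1, 0 to 362 for non-additivity, 412 to 1117 for the average OF1 effect and 1050 to 2903 for the average XL413 effect. The cause of these shifts was not tested.

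The replicate number as a block gave 2 members and 1845 genes for the average XL413 effect, 0 members for the other comparisons, and 2 genes for non-additivity. The deviations of same-numbered libraries correlated between -0.46 and 0.45, with 4 of 18 above 0.1, and 4 of 12 libraries correlated best with their own number, so the numbers are not shown to pair the libraries.

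With 3 libraries a group, changes against DMSO had standard errors of 0.04 to 0.07 on the log2 scale for the members, so differences of a few percent were not detectable.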
